A study of Mus musculus with 4 samples.

Results

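The genes described here encode 10 subunits of the BAF chromatin remodelling complexes, and the question was where, and in how many replicates, Eya1 binding was called at each of them in the embryonic kidney. They are Smarca4 (Brg1), Smarca2 (Brm), Smarcb1, Smarcc1, Smarcc2, Smarcd1, Smarcd2, Smarce1, Arid1a and Arid1b, taken by name out of 21938 nuclear protein-coding genes of the GENCODE M21 annotation (mm10). Chromatin came from kidneys of mouse embryos at E13.5 that carry a knockin of HA and FLAG tags at the Eya1 locus, and Eya1 was pulled down through its FLAG tag. There were 2 Eya1 ChIP-seq replicates, 1 Input sample and 1 IgG sample, each made from 80 pooled kidneys of mice on a mixed C57BL/6J and 129/Sv background. Neither the Input nor the IgG sample was analysed here. The whole organ was used, so the chromatin mixes the nephron progenitors in which Eya1 acts with every other kidney cell type. The lists do not tell in which of the cells that make tagged Eya1 a peak arose. Each replicate is represented by its list of peaks, with a chromosome, a start and an end for each peak but no height or score. The replicate 1 list held 4041 peaks within 1 kb of an annotated start and 236 farther away, with a median width of 1069 bp over all of them. The replicate 2 list held 3534 and 630 such peaks, with a median width of 187.5 bp. Widths are therefore compared only within a list, and with 1 list per replicate no error could be attached to a single peak.

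BAF complexes are the mammalian SWI/SNF remodellers, which use ATP to slide or evict nucleosomes and so open promoters and enhancers to transcription factors. Each complex is built around 1 ATPase, Brg1 or Brm, on a scaffold of core subunits, and the Arid1a and Arid1b subunits mark the canonical BAF form. Eya1 is a transcriptional coactivator and phosphatase that does not bind DNA by itself and acts through DNA-binding partner proteins in nephron progenitors. The peaks below are positions of tagged Eya1 at the genes that encode the remodeller, and they do not measure the binding of the remodeller itself.

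All 10 genes had a replicate 1 peak within 1 kb of an annotated transcription start site (TSS), called a promoter peak here, against 20.3% of all protein-coding genes. In replicate 2, 8 of the 10 had a promoter peak, against 14.7% of all genes, and Smarca4 and Smarca2 were the genes without one. All 10 had a promoter peak in at least one list (23.5% of all genes), and 8 had one in both (11.5%). In each of these 8 genes a replicate 1 and a replicate 2 promoter peak overlapped by at least 1 bp. With 50% of the replicate 2 peak covered the count was 8, and with 50% of both peaks covered it was 1. Promoter peaks had a median width of 1099 bp in replicate 1 and 199 bp in replicate 2. A replicate 2 peak of median width cannot cover 50% of such a replicate 1 peak, wherever it lies. The share of all genes with overlapping peaks is not given here, so these counts have no background. Among all genes with a replicate 1 promoter peak, 56.7% also had one in replicate 2. The subunit genes have 3 to 42 distinct TSSs, and among the 13048 genes with at least 3 TSSs the share with a promoter peak in both lists was 16.3%. The genes were chosen by name with results of these data known, so these shares are a description and no test was made of them.

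**Figure D1:**
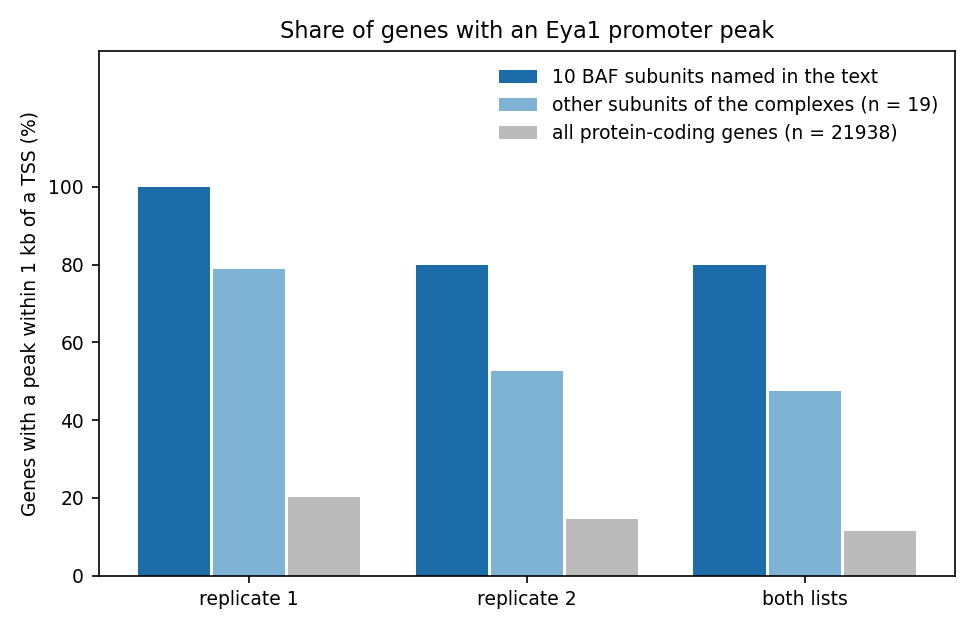
Percentage of genes (y axis) with an Eya1 peak within 1 kb of a TSS in replicate 1, in replicate 2 and in both lists, for the 10 BAF subunits, 19 other subunits of the complexes and all 21938 protein-coding genes. The 10 subunits stand at 100%, 80% and 80%, and all genes at 20.3%, 14.7% and 11.5%.

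The ATPase genes had peaks in replicate 1 and none in replicate 2. Smarca4 encodes Brg1, an ATPase of the complexes. Its replicate 1 peak at chr9:21616051-21616865 was 815 bp wide, covered 2 of its 3 TSSs, and took in 118 bp upstream of the gene, 232 bp of 5′ untranslated exon and 465 bp of intron. Of the promoter peaks of the replicate 1 list, 25.5% were narrower. Replicate 2 listed no peak in the gene or its promoter, and the nearest replicate 2 peak lay 68.9 kb away at chr9:21546927-21547226. The sequence below is shown because the peak reaches into it in one list and no peak does in the other. It holds the 250 bases before the RefSeq start of Smarca4 (GRCm38.p6, chr9:21615919-21616168, plus strand), with matches to the SP motif GGGCGG and the NRF1 motif GCATGCGC in capitals on either strand.
Smarca4: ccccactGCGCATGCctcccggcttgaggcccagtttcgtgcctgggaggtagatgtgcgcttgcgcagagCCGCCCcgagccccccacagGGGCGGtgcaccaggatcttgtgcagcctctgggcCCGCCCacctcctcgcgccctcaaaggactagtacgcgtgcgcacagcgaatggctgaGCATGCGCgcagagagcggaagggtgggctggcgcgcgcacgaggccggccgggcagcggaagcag
The last 118 of these bases lay inside the replicate 1 peak, and 3 SP and 2 NRF1 matches were found in the 250 bases. All 3 SP matches and the first NRF1 match lay before the peak, and only the second NRF1 match lay inside it.

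Smarca2 encodes Brm, the alternative ATPase. Its replicate 1 peak at chr19:26605520-26607931 was 2412 bp wide, and 95.9% of the promoter peaks of that list were narrower. The peak did not cover the 5′ end of the gene. Its midpoint lay 1675 bp downstream of that end, and it covered 1 of the 42 annotated TSSs, at 26607270. Introns made up 2138 bp of the interval and untranslated exon 274 bp. Replicate 2 listed no peak in Smarca2, and its nearest peak lay 2047 kb away. The wide Smarca2 interval and the narrower Smarca4 interval were thus both calls of a single list. The absence of a replicate 2 call says that none passed the peak caller at the depth of that sample, which the lists do not give.

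**Figure D2:**
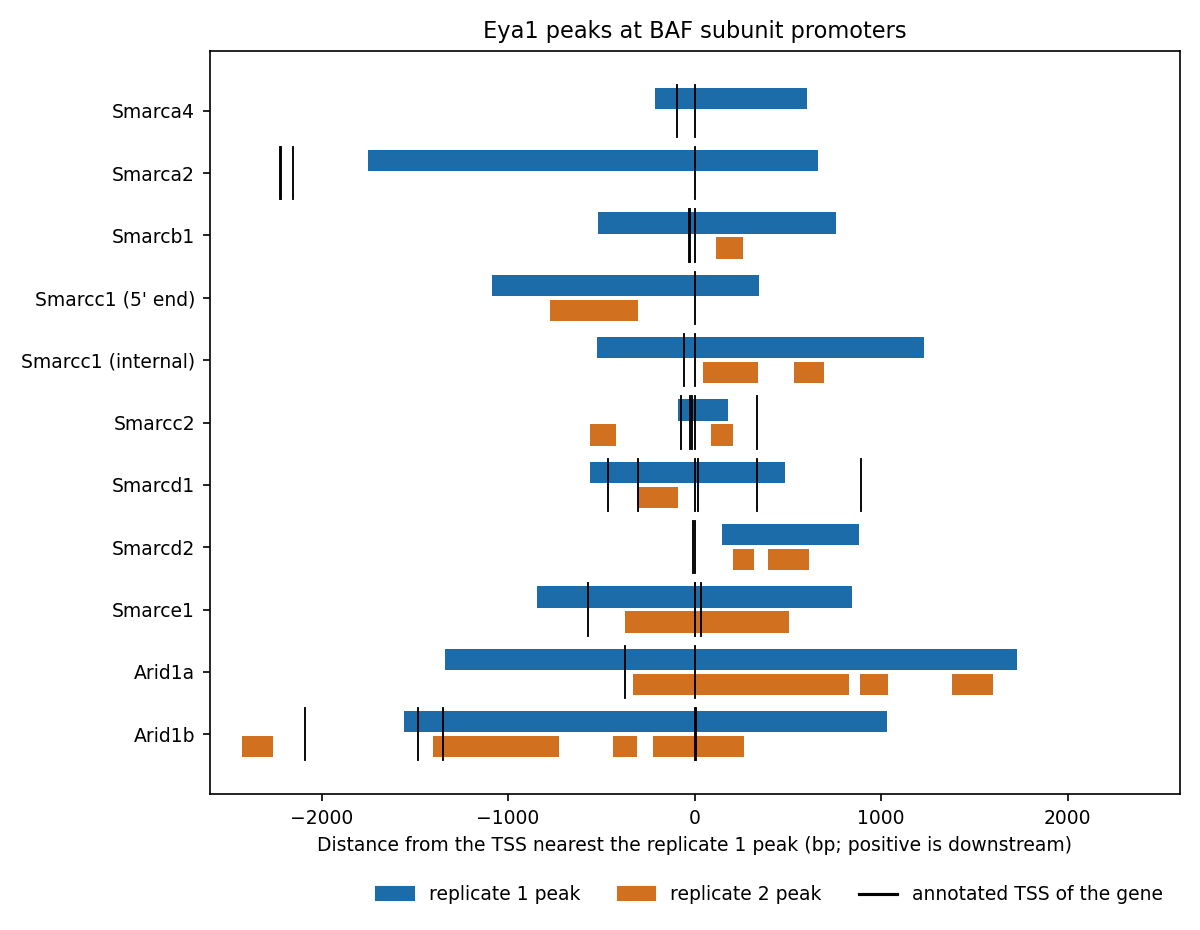
Promoter peaks and the Arid1a gene-body peak as intervals (x axis, bp from the TSS nearest the replicate 1 peak, positive downstream in the direction of transcription), with replicate 1 in blue, replicate 2 in orange and TSSs as vertical lines, and 2 rows for Smarcc1. Smarca4 and Smarca2 have no orange interval, and the orange intervals upstream of Smarcc2 and Arid1b lie outside the blue ones.

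The core subunits all had promoter peaks in both lists. Smarcb1 (Snf5) is a core subunit that contacts the nucleosome and is a tumour suppressor. At Smarcb1 the replicate 1 peak, chr10:75920833-75922108, was 1276 bp wide and covered 3 TSSs. The replicate 2 peak, chr10:75921331-75921476, was 146 bp wide, lay 113 bp from the nearest TSS and covered none. It lay inside the gene, in untranslated and coding exon sequence (81 bp and 65 bp). It lay wholly within the replicate 1 peak and covered 11.4% of it, the smallest share among the 8 genes with both.

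Smarcc1 (Baf155) and Smarcc2 (Baf170) are paralogous scaffold subunits. Smarcc1 had promoter peaks in both lists at its 5′ end and at an internal start. At its 5′ end, replicate 1 had a peak of 1434 bp at chr9:110116620-110118053 and replicate 2 a peak of 472 bp at chr9:110116935-110117406. Of the replicate 1 interval 1088 bp, and of the replicate 2 interval all 472 bp, lay outside Smarcc1. Both intervals held a TSS of Dhx30, an RNA helicase gene transcribed from the opposite strand, so the 5′ peaks cannot be assigned to one of these genes. At the internal start, replicate 1 had a peak of 1752 bp at chr9:110131515-110133266, centred 14682 bp into the gene and covering 2 TSSs. Replicate 2 had peaks of 294 bp at chr9:110132081-110132374 and 162 bp at chr9:110132567-110132728 within it. The first of these held 192 bp of coding sequence, and the second was wholly intronic, with a GC content of 43.2%, the lowest of the replicate 2 promoter peaks of the 10 genes. The RefSeq start of Smarcc1 is the internal one, and the 250 bases before it, chr9:110131774-110132023, lay wholly in the replicate 1 peak and outside both replicate 2 peaks.

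At Smarcc2 the promoter calls were narrow, and all of them also lay within 1 kb of a TSS of Mir8105. The replicate 1 promoter peak at chr10:128459230-128459498 was 269 bp wide, and 0.718% of the promoter peaks of that list were narrower. It held 4 TSSs and reached 18 bp before and 61 bp beyond the stretch chr10:128459248-128459437 that the annotated first exons span. Replicate 2 had a peak of 117 bp at chr10:128459408-128459524, which shared 91 bp with the replicate 1 peak. This is the smallest width in the replicate 2 list, and 246 of its 4164 peaks had it. A further replicate 2 peak of 138 bp at chr10:128458762-128458899 lay 349 bp upstream of the gene and overlapped no replicate 1 peak. Its sequence is shown as the part of the Smarcc2 promoter that only replicate 2 called, and none of the motifs searched below occurred in it, so it has no capitals (mm10, chr10:128458762-128458899, plus strand).
Smarcc2 upstream: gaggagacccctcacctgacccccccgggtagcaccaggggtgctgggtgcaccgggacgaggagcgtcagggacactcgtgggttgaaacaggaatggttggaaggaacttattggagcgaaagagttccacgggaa

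Smarcd1 (Baf60a) and Smarcd2 (Baf60b) are paralogous core subunits that link the complexes to transcription factors. The Smarcd1 replicate 1 peak at chr15:99702031-99703076 was 1046 bp wide and held 5 of its 7 TSSs. It also lay within 1 kb of a TSS of Gm34939. The replicate 2 peak at chr15:99702292-99702507 was 216 bp wide, began 1 bp from a TSS and held 177 bp of coding sequence. At Smarcd2 both lists placed their peaks inside the gene, downstream of its 5′ end. The replicate 1 peak at chr11:106272083-106272821 was 739 bp wide, lay 144 bp from the nearest TSS and covered none. The replicate 2 peaks at chr11:106272351-106272571 (221 bp) and chr11:106272646-106272762 (117 bp) lay within it, 394 bp and 203 bp from the nearest TSS, and together covered 45.7% of it. The wider of these is printed as an interval that both lists called downstream of the start (mm10, chr11:106272351-106272571, minus strand), with SP matches (GGGCGG, either strand) in capitals.
Smarcd2: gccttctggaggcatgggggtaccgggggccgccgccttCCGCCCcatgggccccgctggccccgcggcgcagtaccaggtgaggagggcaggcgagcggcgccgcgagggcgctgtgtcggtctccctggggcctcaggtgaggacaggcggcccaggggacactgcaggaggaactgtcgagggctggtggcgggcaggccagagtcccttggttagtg
This interval holds 79 bp of coding sequence and 142 bp of intron.

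Smarce1 (Baf57) is a core subunit with an HMG domain that binds DNA. Its replicate 1 peak at chr11:99229605-99231292 was 1688 bp wide and covered 4 of 6 TSSs, and its replicate 2 peak at chr11:99229938-99230822 was 885 bp wide and covered 3. Of the replicate 2 promoter peaks, 99.0% were narrower. The replicate 2 peak lay wholly inside the replicate 1 peak and covered 52.4% of it, the largest share among the 10 genes.

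Arid1a and Arid1b encode alternative ARID subunits of canonical BAF, which bind DNA with little sequence preference. They had the widest replicate 1 promoter peaks of the 10 genes and each had several replicate 2 calls. The Arid1a replicate 1 peak at chr4:133751883-133754948 was 3066 bp wide, and 98.9% of the promoter peaks of the list were narrower. It was centred 3354 bp into the gene and covered 2 internal TSSs, 1143 bp of coding sequence and 1854 bp of intron, but not the 5′ end of the gene. Inside it lay replicate 2 promoter peaks of 1160 bp (chr4:133752784-133753943) and 151 bp (chr4:133752573-133752723). Another replicate 2 interval of 225 bp, chr4:133752010-133752234, lay 1377 bp from the nearest TSS in an intron and within the same replicate 1 peak. The 1160 bp peak was wider than 99.8% of the replicate 2 promoter peaks. The sequence shown holds the 250 bases before the internal RefSeq start of Arid1a (GRCm38.p6, chr4:133753986-133754235, minus strand), with SP matches (GGGCGG, either strand) in capitals.
Arid1a: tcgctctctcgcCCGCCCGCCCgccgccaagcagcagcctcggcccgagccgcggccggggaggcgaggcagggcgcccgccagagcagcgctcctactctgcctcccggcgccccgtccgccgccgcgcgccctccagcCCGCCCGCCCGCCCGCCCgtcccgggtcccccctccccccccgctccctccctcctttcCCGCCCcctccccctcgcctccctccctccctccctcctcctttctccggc
All 250 bases lay in the replicate 1 peak and none in a replicate 2 peak, and 7 SP matches, overlapping ones included, were found in them. The 250 bases before the other RefSeq start of Arid1a, chr4:133756770-133757019, lay in no peak of either list.

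The Arid1b replicate 1 peak at chr17:4994862-4997453 was 2592 bp wide, and 97.2% of the promoter peaks of the list were narrower. It covered 4 of 6 TSSs and 1554 bp of coding sequence. Replicate 2 divided the same stretch into peaks of 676 bp (chr17:4995018-4995693), 131 bp (chr17:4995982-4996112) and 485 bp (chr17:4996199-4996683), which covered 49.8% of it. A further replicate 2 peak of 169 bp, chr17:4993993-4994161, lay 171 bp upstream of the gene and outside the replicate 1 peak. At both ARID genes the replicate 1 peak thus lay wholly inside the gene, mainly over coding and intronic sequence downstream of the gene's 5′ end. Both peaks also took in bases before an internal RefSeq start, all 250 at Arid1a and 212 of the 250 at Arid1b.

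Over all 10 genes there were 11 replicate 1 promoter peaks with a median width of 1434 bp (range 269 to 3066 bp), against a median of 1099 bp for all 4041 promoter peaks of the list. There were 16 replicate 2 promoter peaks with a median of 192.5 bp (range 117 to 1160 bp), against 199 bp for all 3534. Replicate 2 peaks covered from 11.4% of the replicate 1 interval at Smarcb1 to 52.4% at Smarce1 in the genes with both, with 20.7% at Smarcd1, 32.9% at the 5′ Smarcc1 peak, 33.8% at Smarcc2 and 50.1% at Arid1a. The genes with the widest replicate 1 peaks were not all called in replicate 2, since Smarca2 ranked behind Arid1a and Arid1b in width and had no replicate 2 peak.

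**Figure D3:**
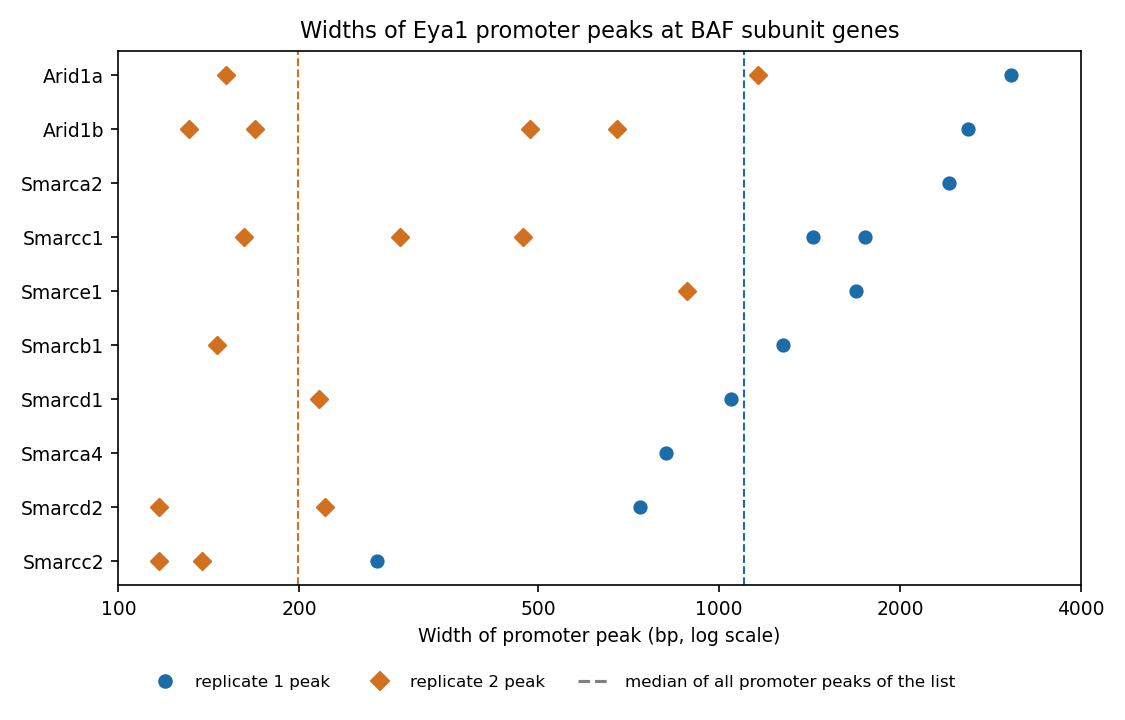
Width in bp (x axis, log scale) of each promoter peak at the 10 genes in replicate 1 (circles) and replicate 2 (diamonds), with genes ordered by their widest replicate 1 peak and dashed lines at the median of all promoter peaks of each list, 1099 bp and 199 bp. Arid1a has the widest of these peaks in both lists (3066 bp and 1160 bp), and Smarcc2 the narrowest replicate 1 peak (269 bp).

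The promoter peaks of these genes were rich in GC and in CpG. The GC content of the replicate 1 promoter peaks ranged from 56.2% to 75.1% (median 64.7%, against 63.1% for all promoter peaks of the list), and that of the replicate 2 peaks from 43.2% to 78.8% (median 72.9%, against 70.1%). The ratio of observed to expected CpG, which is low in most of the genome because methylated cytosines are lost, had a median of 0.824 in replicate 1 (all promoter peaks 0.782) and 0.893 in replicate 2 (0.850). The letters of 6 motifs were searched on both strands in the 200 bp at each peak's midpoint: SP (GGGCGG), ETS (CCGGAAG), NRF1 (GCATGCGC), YY1 (GATGGCGGC), E-box (CACGTG) and the 17-bp RE1 motif with up to 2 mismatches. SP letters occurred in 8 of 11 replicate 1 windows and 11 of 16 replicate 2 windows at the subunit genes, against 52.4% and 53.3% of windows at all promoter peaks. YY1 letters occurred in 1 of 16 replicate 2 windows, at Smarcd1, and in 0 of 11 replicate 1 windows, against 1.56% and 1.63% of windows at all promoter peaks. Those of ETS, NRF1, E-box and RE1 occurred in 0 windows of either list at the subunit genes. They were also uncommon at all promoter peaks, in 7%, 1.06%, 3.98% and 3.12% of replicate 1 windows and 4.98%, 0.509%, 2.43% and 6.31% of replicate 2 windows, so 0 of so few windows does not set these genes apart. Over the whole replicate 1 peaks, ETS letters occurred in 2 of 11, both at Smarcc1 (31.3% of all promoter peaks of the list). NRF1 letters occurred in 3, at Smarca4, Smarcb1 and Smarcc1 (7.82%), and YY1 letters in 2, at Smarcd1 and Smarce1 (8.14%). SP letters occurred in 11 of 11 (92.8%). Those of E-box and RE1 occurred in 0 of 11 (22.9% and 14.7%), again too few peaks to set these genes apart. SP letters were in 35.7% of 32851 RefSeq promoter windows, each 300 bases long. Of the 10 genes, 9 were matched to the RefSeq promoter table by symbol, and Smarce1 was not.

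Smarcc2 differed from the other 9 genes within its gene body. Replicate 1 listed 6 peaks in Smarcc2 more than 1 kb from any TSS, and no such peak in another of the 10 genes, where 0.47% of all protein-coding genes had at least one. In replicate 2 the only gene-body peak away from TSSs was the Arid1a interval above, where 1.19% of all genes had one. All 6 Smarcc2 peaks lay over coding exons. They were 640 bp (chr10:128468749-128469388, exons 8 to 10 of 28), 303 bp (chr10:128482672-128482974, exon 20), 227 bp (chr10:128483147-128483373, exon 21), 448 bp (chr10:128484031-128484478, exons 23 and 24), 272 bp (chr10:128485508-128485779, exon 25) and 436 bp wide (chr10:128487216-128487651, exon 26). Each held whole exons and ended 12 to 85 bp beyond the outermost exon edges (median 34.5 bp). The 9 exons inside them were 76 to 382 bp long (median 136 bp), and the other 19 were 38 to 461 bp long (median 93 bp). Exon length alone did not separate them, since exons 27 and 28, of 426 and 461 bp, were in no peak. The intervals held 1565 of the 3639 coding bases of the transcript (43.0%).

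These exon intervals are shown with the exon in capitals and the flanking intron in lower case, because their ends follow the exon's ends (mm10, plus strand, chr10:128483147-128483373 for exon 21 and chr10:128485508-128485779 for exon 25).
Smarcc2 exon 21: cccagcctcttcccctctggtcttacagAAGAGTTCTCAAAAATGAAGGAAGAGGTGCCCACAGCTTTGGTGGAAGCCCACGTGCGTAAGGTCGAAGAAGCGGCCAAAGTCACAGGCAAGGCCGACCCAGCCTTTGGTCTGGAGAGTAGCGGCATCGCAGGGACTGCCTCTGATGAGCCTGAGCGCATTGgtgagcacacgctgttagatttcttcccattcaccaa
Smarcc2 exon 25: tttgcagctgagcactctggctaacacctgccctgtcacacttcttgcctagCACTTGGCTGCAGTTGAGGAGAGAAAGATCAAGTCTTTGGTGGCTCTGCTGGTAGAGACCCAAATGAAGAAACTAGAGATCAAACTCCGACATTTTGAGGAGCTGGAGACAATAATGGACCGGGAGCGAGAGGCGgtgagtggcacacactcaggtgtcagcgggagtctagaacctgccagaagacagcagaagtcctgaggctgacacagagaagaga
Exon 21 made up 71.4% of the first interval, and exon 25 49.6% of the other.

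None of the 6 Smarcc2 exon peaks overlapped a replicate 2 peak. Their CpG ratios, 0.136 to 0.515 with a median of 0.401, all lay below those of the replicate 1 promoter peaks of the 10 genes, 0.666 to 1.08, and the median of all 236 replicate 1 peaks over 1 kb from any TSS was 0.296. The RE1 motif, present in 154 of those 236 peaks, was in 0 of the 6. Of the 236, 20 held a whole exon, in 10 genes, and only Smarcc2 and Eya1 had 3 or more of them, 6 in each gene. The widest Eya1 interval, of 4931 bp and 2.6% exonic, reached 4764 bp beyond its exon and so did not follow the exon's ends. Eya1 is the gene that carries the tag knockin. In replicate 2, 0 of the 630 peaks away from TSSs held a whole exon. Replicate 2 peaks, with a median width of 187.5 bp, had less room for a whole exon, so this 0 is not set against the 20 of 236. The Smarcc2 exon intervals are treated as a possible artifact of the replicate 1 library, which was not tested here. The replicate 1 promoter peak of Smarcc2 spans its first exons in the same way. Without any replicate 1 peak of Smarcc2, 9 of 10 genes had a replicate 1 promoter peak and 7 had one in both lists, while the replicate 2 peaks of Smarcc2 do not depend on it.

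**Figure D4:**
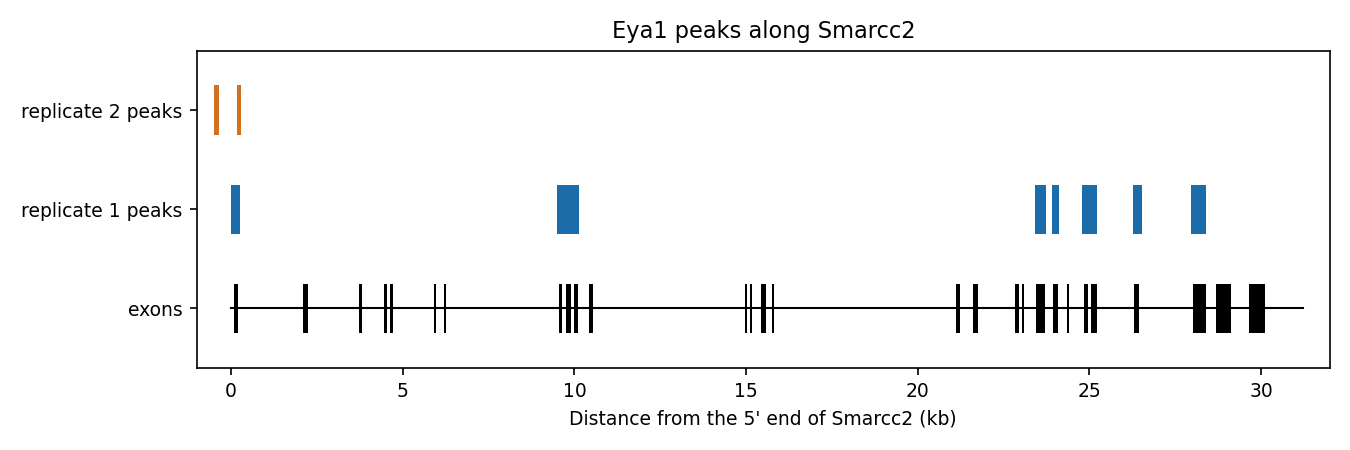
Peaks of replicate 2 (top) and replicate 1 (middle) and exons (bottom) along Smarcc2, in kb from the 5′ end of the gene (x axis). The 6 replicate 1 gene-body peaks each lie over whole exons, and replicate 2 has peaks at the start only.

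**Figure D5:**
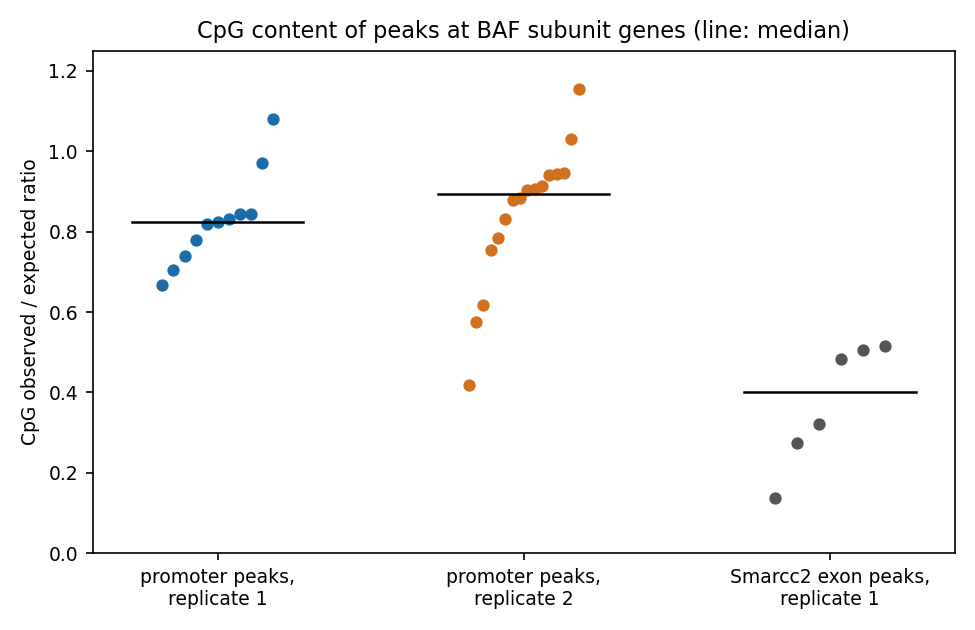
Ratio of observed to expected CpG (y axis) of each promoter peak of the 10 genes in replicate 1 and replicate 2 and of each Smarcc2 exon peak, ordered by value within a column, with lines at the medians of 0.824, 0.893 and 0.401. The 6 exon peaks lie below every replicate 1 promoter peak, and the lowest replicate 2 value, 0.419, is the intronic Smarcc1 peak.

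Of 19 further subunits of BAF and of the related PBAF and non-canonical complexes, 15 had a promoter peak in replicate 1, 10 in replicate 2 and 9 in both. The shares of all protein-coding genes were 20.3%, 14.7% and 11.5%. Those with a peak in both were Arid2, Pbrm1 and Brd7, which belong to PBAF, and the actin-related Actl6b. The others were Actb, Ss18, Ss18l1, and Bicra and Bicral of the non-canonical form. At Pbrm1 the 179 bp replicate 1 peak and the 149 bp and 117 bp replicate 2 peaks did not overlap. Overlapping peaks were thus found at 8, a count for which no share of all genes is given. Phf10, Dpf1 and Dpf3 had no promoter peak in either list. They encode PHD finger subunits, as does Dpf2, named after its values were seen, which had a promoter peak of 814 bp in replicate 1 and none in replicate 2. Brd9, named after its values were seen, was the single subunit with a promoter peak in replicate 2 (156 bp) and none in replicate 1. The Brd9 peak also held a TSS of Trip13, the Dpf2 peak a TSS of Gm42067, and the replicate 1 Ss18l1 peak a TSS of Psma7. The replicate 2 Ss18l1 peak lay within 1 kb of a TSS of Psma7, and all Pbrm1 peaks within 1 kb of a TSS of Gnl3. Those peaks cannot be assigned to a single gene. The 16 replicate 1 promoter peaks at the 19 subunits had a median width of 1155 bp and the 15 replicate 2 peaks one of 246 bp. The 10 genes above had 1434 bp and 192.5 bp.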

How the data were processed

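Tagged Eya1 was measured by anti-FLAG ChIP-seq in 2 replicates of pooled E13.5 kidneys of knockin mice. According to their methods the authors aligned reads to mm10 with Bowtie and called peaks with MACS against input or IgG. The deposited lists give only the positions of each peak. Which cutoff and control stand behind each list is not given in the sources used here, so depth is unknown and no interval or test was computed. Nothing beyond the kidney pools says how independent the replicates are. Groups came from the sample labels.

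Peaks were joined to GENCODE M21 (mm10) with Python 3.11.15 and numpy 2.4.6, and drawn with matplotlib 3.10.9. A promoter peak lies within 1 kb of any TSS of any transcript of the gene. The 11 mitochondrial peaks of replicate 2 were left out, and coordinates are 1-based. The interval scripts were tested on simulated data. A further motif that was searched is not reported here. Members and lists were chosen with earlier results of these data known. Named were the 10 genes, other subunits with a promoter peak in both lists or in neither, genes whose TSS lies in a member's promoter peak, and Eya1 for exon peaks. Brd9, Dpf2, Mir8105, Gm34939 and the genes whose TSS lies in or within 1 kb of a promoter peak of a named further subunit were named after their values were seen. Alternatives changed the TSS distance, the TSS set, the overlap, merging, peak width, the motif window and the list used.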

Additional observations from a re-analysis of the deposited data

How the results depend on the processing

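Of 52 alternative values for 24 results, 43 stayed within 1.5 times the value given. Dropping the peaks narrower than their list's median left 6 of the 10 genes with a replicate 1 promoter peak and 4 with one in both lists. Requiring 50% of both peaks to be covered left 1 gene with overlapping promoter peaks, a rule that the narrow replicate 2 peaks could seldom meet. Over whole peaks in replicate 1, ETS letters occurred in 2 of 11 promoter peaks (31.3% of all promoter peaks of the list), NRF1 in 3 (7.82%) and YY1 in 2 (8.14%). Merging peaks within 100 bp gave replicate 2 promoter peaks a median width of 294 bp. With gene-body peaks taken over 3 kb from a TSS, replicate 2 had 0. Without the replicate 1 peaks of Smarcc2, chosen after seeing the data, replicate 1 had 0 gene-body peaks away from TSSs. The number of genes with a promoter peak in either list ranged from 8 without replicate 1 to 10 without replicate 2. Counting only the 5′ end of each gene left 9 genes in replicate 1 and 7 in both lists, since Arid1a was lost. The causes were not tested. No paired analysis was possible because no test was run and there is a single group of Eya1 samples. The lists hold no scores, so how far depth limits replicate 2 calls could not be measured.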
